A study of Mus musculus with 6 samples.

Results

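B-cells lacking the intronic enhancer Eμ were compared directly with B-cells lacking the 3′ regulatory region (3′RR) of the immunoglobulin heavy chain (IgH) locus. The libraries were taken by genotype and not by any measured value: the 4 libraries of Eμ-deficient and 3′RR-deficient mice, out of 6 libraries in the series, entered the comparison, and the 2 wt libraries were set beside it only as a reference. Of 46963 genes in the count table, 13888 had at least 10 counts in at least 2 of the 4 libraries and were tested. Each deletion is represented by 1 library of resting and 1 library of LPS-stimulated CD43-depleted splenic B-cells, and the stimulus was lipopolysaccharide (LPS), a bacterial outer membrane component, at 5 μg per ml for 2 days. The Eμ-deficient mice lack Eμ with its flanking matrix attachment regions, and the 3′RR-deficient mice lack the 3′RR. By the methods, wt mice were of the 129 strain, both deletions were in a 129 background, and all mice were 8 to 12 weeks old. The methods name both sexes, and the sex of the mice in each library is not stated. Both deletions are carried in the germline, so that B-cells also developed without the enhancer. The labels state that the cells of 2 mice were pooled per library, while the methods give 4 mice and 2 pools per genotype, so both libraries of 1 genotype could share their mice. By the labels, resting cells were kept in culture for 2 days alone, while by the methods they were taken before stimulation, and a protocol text gives the LPS dose in mg instead of μg.

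A B-cell assembles its heavy chain gene from V, D and J segments, and the assembled exon is first joined to the Ighm constant gene by splicing. Eμ lies between the joining segments and Ighm and acts in V(D)J recombination in precursor cells, whereas the 3′RR lies downstream of the last constant gene, Igha, and drives transcription of the constant (CH) genes during class switch recombination (CSR), in which Ighm and Ighd are replaced by a downstream CH gene. Germline transcripts of a downstream CH gene precede its recombination, and in resting B-cells most heavy chain transcripts are those of Ighm and Ighd.

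The genes received between 9111974 and 20780706 counts in the 4 libraries, of which 16.8% to 19.5% came from the ribosomal Rn18s. A total of 3 counts, the least treated here as detected, equals between 0.142 and 0.342 CPM, the unit of level used here, in which a count is divided by the TMM-scaled size of its library. All 21 B-cell receptor and identity genes were detected in each of the 4 libraries, with a summed level of 5220 and 4540 CPM in resting and LPS-stimulated Eμ-deficient B-cells and of 7140 and 5320 CPM in 3′RR-deficient B-cells. The resting Eμ-deficient library stood apart in its red blood cell transcripts, which are given with the other cell markers. Among 35 spike-in RNAs with at least 100 counts, the log2 ratio of the deletions had a standard deviation (SD) of 0.34 between the resting and 0.86 between the LPS libraries, against 0.06 and 0.08 from counting alone. The 95% intervals of ratios given here cover counting error only.

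With the culture state as a block, edgeR's quasi-likelihood test called 904 genes higher in Eμ-deficient B-cells (6.51% of those tested) and 750 genes higher in 3′RR-deficient B-cells (5.4%), at an adjusted p (Benjamini-Hochberg) under 0.05. Since there is 1 library per genotype and state, the error of this test is the departure of the 4 libraries from additive effects, not the spread between mice. In each state apart the ratio of the deletions was taken as the log2 ratio of CPM, Eμ-deficient over 3′RR-deficient, with 3 counts or fewer set to 3 in counts over all genes, medians and plots. A ratio printed with its interval for 1 gene uses the counts as they are. Against 0 counts the fold from a floor of 3 counts is printed after "at least", which is a convention and not the limit of a 95% interval. That limit can be lower: for Ighg3 after LPS it was a log2 ratio of 7.73, against 8.03 from the floor. Of 10477 genes with at least 30 counts in a library of each state, 342 (3.26%) were more than 2-fold higher in Eμ-deficient B-cells in both states and 124 (1.18%) more than 2-fold higher in 3′RR-deficient B-cells in both states. The ratios of the resting and the LPS libraries had a Spearman rho of 0.50 across the 13888 genes, which are not independent replicates. Of the called genes 1571 of 1654 (94.98%) lay on the same side in both states, a share that the call itself favours.

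**Figure D1:**
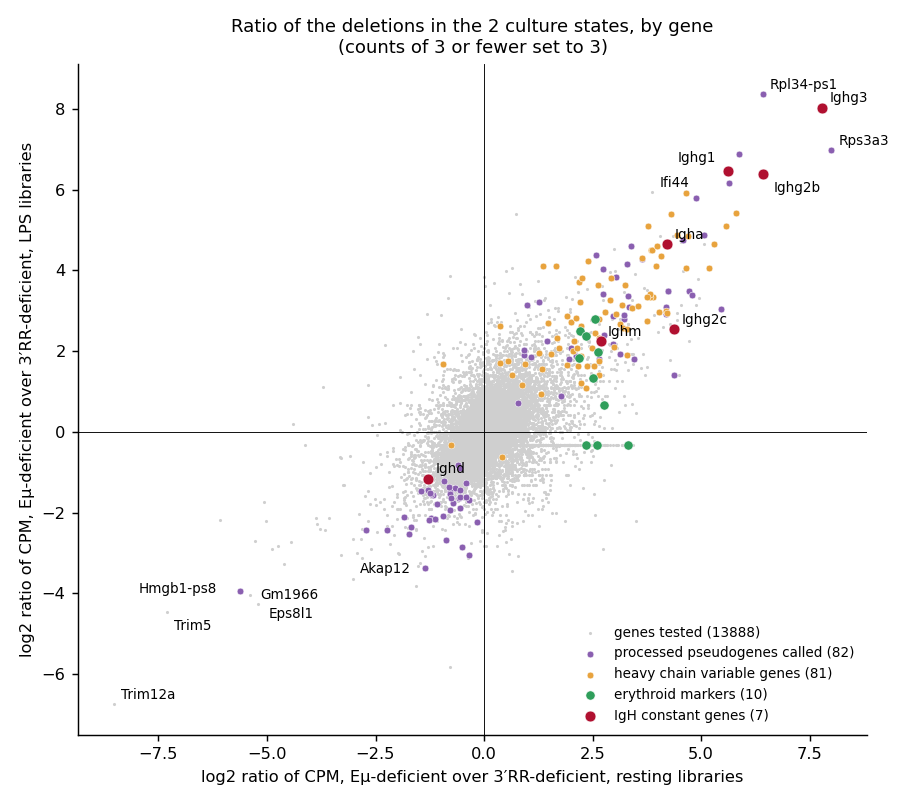
Each point is a gene tested, with its log2 ratio of CPM (Eμ-deficient over 3′RR-deficient) in the resting libraries on the horizontal axis and in the LPS-stimulated libraries on the vertical axis. Of the 7 IgH constant genes tested, 6 lie in the upper right, Ighd lies in the lower left, and Trim12a and Trim5 lie at its lower left end.

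The calls depended on the base composition of the transcripts. The log2 ratio fell with the GC content of the transcript, with a Spearman rho of -0.34 in the resting and -0.50 in the LPS libraries over 13670 genes. Once this trend was removed, 392 and 135 genes were called, and with the 2 wt libraries in the fit 163 and 38 genes. A total of 148 genes higher in Eμ-deficient B-cells were called in the 4-library fit, with the GC trend removed, with wt in the fit and by the DESeq2 Wald test, of which 67 were immunoglobulin genes, 24 processed pseudogenes and 52 protein-coding genes. On the other side 33 genes passed all 4, of which 30 were protein coding and 2 processed pseudogenes, and none was an immunoglobulin gene. Genes called in all 4 analyses are named below as consistently called.

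Transcripts of the IgH locus were among those that separated the deletions most. The 5 CH genes downstream of Ighd that could be tested were all called higher in Eμ-deficient B-cells, and in 3′RR-deficient B-cells they had few counts. Together with Ighe, which could not be tested, they had in Eμ-deficient B-cells 1787 counts in the resting and 1858 in the LPS library, in 3′RR-deficient B-cells 91 and 8, and in wt B-cells 3463 and 2050. The summed level of Eμ-deficient B-cells was thus 133 and 169 CPM against 4.30 and 0.911 CPM, and the log2 ratio of the sums was 4.94 (95% interval 4.64 to 5.26) at rest and 7.53 (6.55 to 8.75) after LPS. None of the 5 tested genes shared a stretch of 100 bases with a transcript of another gene, and Ighe was not examined for this.

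Ighg3, the constant gene of IgG3 and a main target of LPS-induced switching, had 425 counts in the resting and 985 in the LPS library of Eμ-deficient B-cells and 2 and 0 counts in those of 3′RR-deficient B-cells. The groups did not overlap, and wt B-cells, with 807 and 1285 counts, were on the side of the Eμ-deficient cells. The log2 ratio was 8.38 (6.52 to 11.43) at rest, and after LPS Ighg3 was at least 262-fold higher without Eμ than without the 3′RR (adjusted p = 3.2e-07). Ighg2b, of IgG2b, gave 165 and 423 counts against 1 and 4, and its log2 ratios were 8.02 (5.52 to 13.33) and 6.4 (5.03 to 8.28) (adjusted p = 1.45e-06). Ighg1, of IgG1, gave 94 and 332 counts against 0 and 1, at least 49.1-fold higher at rest and with a log2 ratio of 8.05 (5.56 to 13.36) after LPS (adjusted p = 1.17e-06). After LPS, each of these 3 γ genes had at least 332 counts without Eμ and at most 4 without the 3′RR.

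The reference entry Ighg2c had the lowest counts of the tested genes of this group in Eμ-deficient B-cells. It had 40 and 22 counts against 0 and 0 in 3′RR-deficient B-cells and 632 and 75 in wt. Reads were mapped to a C57BL/6J reference, and which gene or allele of these mice gave the reads on this entry was not examined. Ighg2c was at least 20.9-fold higher in the resting and at least 5.85-fold higher in the LPS library of Eμ-deficient B-cells (adjusted p = 0.00114), but DESeq2 gave it no adjusted p, and its call was lost when the resting 3′RR-deficient library was left out. Igha, of IgA and next to the 3′RR, was the only downstream gene with more than 4 counts in a 3′RR-deficient library. It had 1044 and 94 counts in Eμ-deficient and 88 and 3 counts in 3′RR-deficient B-cells, with log2 ratios of 4.22 (3.90 to 4.55) and 4.64 (3.05 to 6.95) (adjusted p = 3.96e-06). Ighe, of IgE, had too few counts to be tested, with 19 and 2 against 0 and 0, which makes it at least 9.93-fold higher in the resting Eμ-deficient library.

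Ighm and Ighd, the constant genes expressed before switching, went opposite ways. Ighm had 68953 and 78686 counts in Eμ-deficient and 16840 and 13218 counts in 3′RR-deficient B-cells, which is 5110 and 7150 CPM against 796 and 1510 CPM, while wt B-cells were between them at 2060 and 3000 CPM. Its log2 ratio was 2.68 (2.66 to 2.71) at rest and 2.25 (2.22 to 2.27) after LPS, and the fitted log2 fold change was 2.46 ± 0.36 (SE, adjusted p = 0.00157). The call held with the GC trend removed, with wt in the fit and by DESeq2, but in a fit with wt it ended when any 1 of the 4 libraries was left out. Ighd had 1059 and 327 counts in Eμ-deficient and 4070 and 585 counts in 3′RR-deficient B-cells, and wt B-cells had a higher level than either, with 388 and 85.0 CPM against 78.5 and 29.7 CPM without Eμ and 192 and 66.6 CPM without the 3′RR. Its log2 ratios were -1.29 and -1.17 (fitted -1.23 ± 0.19, adjusted p = 0.00227), and it was not called with wt in the fit (adjusted p = 0.131).

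The make-up of the CH transcripts within a library, which does not depend on the scaling between libraries, differed as well. Downstream CH genes held 2.49% (Clopper-Pearson 95% interval 2.38 to 2.61) of all CH counts in resting and 2.30% (2.20 to 2.4) in LPS-stimulated Eμ-deficient B-cells, against 0.433% (0.349 to 0.532) and 0.0579% (0.025 to 0.114) in 3′RR-deficient B-cells. The wt shares of 7.14% and 3.10% were above both deletions. Ighd held 1.51% and 0.414% of the Ighm and Ighd counts without Eμ but 19.5% and 4.24% without the 3′RR, and 15.8% and 2.76% in wt. The intervals of the deletions did not overlap in either state for either share, though with 1 library each they compare libraries, and the shares are of counts and not corrected for transcript length.

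**Figure D2:**
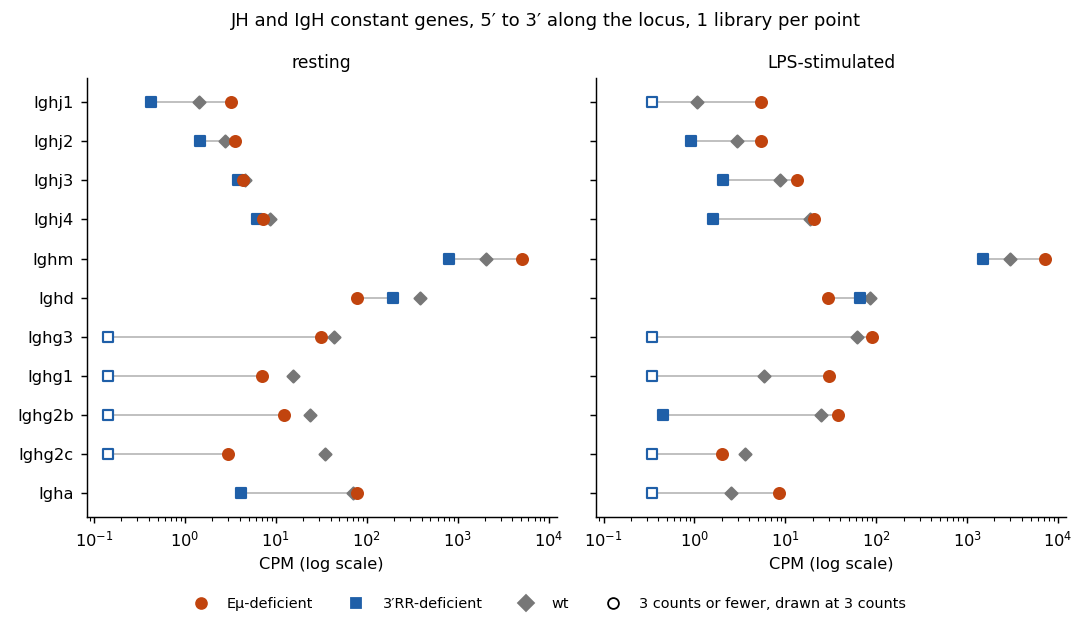
CPM on a log scale (horizontal) of the 4 joining and 7 constant genes of the IgH locus in each of the 6 libraries, 1 point per library, with open symbols for 3 counts or fewer. The 3′RR-deficient libraries lie to the left of the Eμ-deficient libraries for all genes but Ighd, and at the detection limit for the γ genes except Ighg2b after LPS.

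The joining (JH) genes lie between the D segments and Eμ, and reads on them come from transcripts that retain or start at a JH segment. Their exons are shown because each is next to the deleted enhancer and is so short that few reads can be assigned to it, and because they differ in sequence enough to be counted apart. All are on the minus strand of chromosome 12 (GRCm38): Ighj1 at chr12:113429781-113429833, Ighj2 at chr12:113429468-113429515, Ighj3 at chr12:113429085-113429132 and Ighj4 at chr12:113428514-113428567. Capitals mark the bases TGGGG, which begin the conserved tryptophan and glycine codons of the JH motif.
Ighj1: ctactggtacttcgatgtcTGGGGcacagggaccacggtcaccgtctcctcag
Ighj2: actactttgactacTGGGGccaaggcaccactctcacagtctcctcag
Ighj3: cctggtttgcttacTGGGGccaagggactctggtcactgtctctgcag
Ighj4: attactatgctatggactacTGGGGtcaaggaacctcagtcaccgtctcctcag

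Ighj1, the JH gene farthest from Eμ, had 43 and 59 counts in Eμ-deficient and 9 and 2 counts in 3′RR-deficient B-cells and was consistently called (fitted log2 fold change 3.41 ± 0.50, adjusted p = 0.00149). Ighj2 had 48 and 60 counts against 31 and 8 (1.78 ± 0.42, adjusted p = 0.0198), a call that ended with the GC trend removed, with wt in the fit and by DESeq2. Ighj3 and Ighj4, the nearest to Eμ, did not pass the test. For these the resting libraries were close, with 58 against 81 counts of Ighj3 and 98 against 132 of Ighj4, and log2 ratios of 0.17 (-0.34 to 0.67) and 0.22 (-0.17 to 0.61). After LPS the ratios were 2.73 (2.02 to 3.53) and 3.69 (2.92 to 4.59), from 150 against 18 and 227 against 14 counts. Ighd4-1, the D segment nearest to the JH genes, belonged to the 12 genes with the largest ratios, with 85 and 95 counts against 4 and 0 (adjusted p = 9.77e-05). The wt libraries had 12 and 17 counts and were nearer to the 3′RR-deficient libraries. This segment is 11 bases long, so its counts come from reads that also cover the sequence around it.

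The heavy chain variable (Ighv) genes, which encode most of the antigen-binding domain, were higher in Eμ-deficient B-cells in most of their members. Of 81 Ighv genes tested, 71 were called higher without Eμ, beside 6.51% of all genes, and none was called higher without the 3′RR. Of these calls, 60 remained with the GC trend removed, 44 with wt in the fit and 54 by DESeq2. Their fitted log2 fold changes ran from -0.56 to 5.82 with a median of 2.85, against -0.01 for all genes tested. Summed over all Ighv genes, Eμ-deficient B-cells had 2190 and 2930 CPM, 3′RR-deficient B-cells 204 and 308 CPM and wt B-cells 566 and 1190 CPM, so that both deletions lay on opposite sides of wt in both states. Per 100 counts of Ighm, there were 42.8 and 40.9 Ighv counts without Eμ and 25.6 and 20.5 without the 3′RR, with 27.5 and 39.7 in wt.

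The difference was uneven over the V families, which are groups of Ighv genes of similar sequence. The 3 tested genes of the Ighv7 family had a median log2 fold change of 4.55 and the 4 of the Ighv9 family 4.21, followed by Ighv14 (3.23, 4 genes), Ighv8 (3.04, 5 genes) and Ighv1 (2.72, 37 genes). The median was 2.53 for Ighv5, 2.28 for Ighv2 and 1.89 for Ighv3, and the 3 genes of the Ighv6 family, with a median of 0.99, were not called. The other 7 genes that were not called included Ighv5-2, with 15 and 16 counts against 40 and 16. Ighv7-3 held the largest share of Ighv counts without Eμ, 16.3% at rest and 19.9% after LPS, with 4804 and 6408 counts against 158 and 149 (fitted log2 fold change 5.34 ± 0.25, adjusted p = 3.2e-07), and its name is given after its values were seen. No Ighv gene held more than 8.77% of the Ighv counts without the 3′RR. The effective number of Ighv genes was taken as the exponential of the Shannon entropy of their shares. It was 29.5 and 27.9 without Eμ, 51.8 and 39.5 without the 3′RR and 54.7 and 49.7 in wt. The Ighv counts were thus spread over fewer genes in the Eμ-deficient libraries. Members of a family are similar in sequence and reads that fit several genes were counted at their primary alignment only, so that single Ighv genes are uncertain.

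Light chain transcripts, which come from loci on other chromosomes, differed less. Of 97 kappa variable (Igkv) genes, 50 were called higher in Eμ-deficient and 1 in 3′RR-deficient B-cells, beside 6.51% and 5.4% of all genes. Their median log2 fold change was 1.05, and 31 and 0 were called with the GC trend removed. Their sum was 3080 and 3860 CPM without Eμ and 1040 and 2280 CPM without the 3′RR, against 739 and 1320 CPM in wt, so that both deletions were above wt. The exception was Igkv14-126, with 500 and 294 counts against 2463 and 383 (adjusted p = 0.0102), which took 11.1% of the Igkv counts of the resting 3′RR-deficient library and was not called with the GC trend removed. Igkc, the kappa constant gene, was at 2350 and 2890 CPM against 956 and 2630 CPM and did not pass the test (fitted 0.72 ± 0.35, adjusted p = 0.195). Of the 5 light chain constant genes, with a median of 0.69, Iglc2, a lambda constant gene, was called higher in Eμ-deficient B-cells (258 and 203 against 135 and 141 CPM, adjusted p = 0.0382), but not with the GC trend removed. Of the lambda variable genes, Iglv1 (4014 and 3662 against 1614 and 1615 counts) and Iglv2 (2153 and 1189 against 456 and 394 counts) were called higher in Eμ-deficient B-cells and Iglv3 was not (643 and 528 against 648 and 795 counts).

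Of 20 tested genes that flank the IgH locus, 1 was called, near the 5.4% of all genes in that direction. It was Akt1, a kinase of growth factor signalling, which was lower in Eμ-deficient B-cells (324 and 396 against 756 and 821 counts, adjusted p = 0.0196) and was not called with the GC trend removed. The median log2 fold change of the flanking genes was -0.41 and became -0.01 with the GC trend removed. Of the surrogate light chain and recombinase genes, which act in precursor B-cells, only Vpreb3 and 1 other of 7 had enough counts to be tested, and 3 or 4 of the 7 were at 0 counts in each of the 4 libraries.

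Of 10 genes of marginal zone B-cells, a splenic population that responds fast to blood-borne antigens, 5 were called higher in Eμ-deficient and 1 in 3′RR-deficient B-cells, beside 6.51% and 5.4% of all genes, with a median log2 fold change of 0.81. Of 7 genes of follicular B-cells, the recirculating majority, 3 were called higher in 3′RR-deficient B-cells and none in Eμ-deficient B-cells, with a median of -0.55. Of 5 genes of transitional B-cells, the recent emigrants from bone marrow, 4 were called higher in 3′RR-deficient B-cells, with a median of -1.28, but the summed level of the 5 was 347 and 908 CPM without Eμ and 360 and 914 CPM without the 3′RR. In bulk RNA fewer cells of a type and less RNA per cell cannot be told apart. A shortage of follicular B-cells in this Eμ-deficient model is known from earlier work.

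Klf2, a transcription factor that keeps B-cells in the follicular programme, had 2245 and 147 counts in Eμ-deficient and 8888 and 343 counts in 3′RR-deficient B-cells. Its level of 166 against 420 CPM in resting and 13.4 against 39.1 CPM in LPS-stimulated B-cells was lower without Eμ in both states, with wt between them at 303 and 24.9 CPM, and it was consistently called (fitted -1.44 ± 0.20, adjusted p = 0.00114). In a fit with wt the call of Klf2 ended when any 1 of the 4 libraries was left out. Fcer2a, which encodes the IgE receptor CD23 of follicular B-cells, had 63.0 and 33 CPM against 220 and 73.7 CPM (-1.49 ± 0.22, adjusted p = 0.00146), and Cd55, a complement regulator, had 54.5 and 20.8 CPM against 185 and 39.3 CPM (-1.36 ± 0.23, adjusted p = 0.00421). Both were also called with the GC trend removed but not with wt in the fit (adjusted p = 0.0535 and 0.0974).

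Myof, which encodes a membrane repair protein, was the marginal zone gene with 59.8 and 6.54 CPM without Eμ and 15.7 and 3.08 CPM without the 3′RR (1.61 ± 0.27, adjusted p = 0.00334). Asb2, of a ubiquitin ligase, had 698 and 38 counts against 427 and 5 (1.63 ± 0.30, adjusted p = 0.00596). Cd9, a tetraspanin, had 43.2 and 31.3 CPM against 16.5 and 15.6 CPM (adjusted p = 0.00572), Cd1d1, which presents lipids, 71.7 and 9.63 against 34.7 and 4.67 CPM (adjusted p = 0.0113), and S1pr3, a receptor for sphingosine phosphate, 59.8 and 11.8 against 25.9 and 7.97 CPM (adjusted p = 0.0277). The last gene called on this list went the other way: Notch2, the receptor needed for marginal zone B-cells, had 256 and 127 CPM without Eμ and 390 and 238 CPM without the 3′RR (-0.76 ± 0.20, adjusted p = 0.0343). The 5 genes higher in Eμ-deficient B-cells were called with the GC trend removed as well and Notch2 was not, and none of the 6 was called with wt in the fit. Cr2, of the complement receptor CD21, had 717 and 84.3 CPM against 387 and 60.6 CPM and missed the threshold (0.69 ± 0.21, adjusted p = 0.0577).

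**Figure D3:**
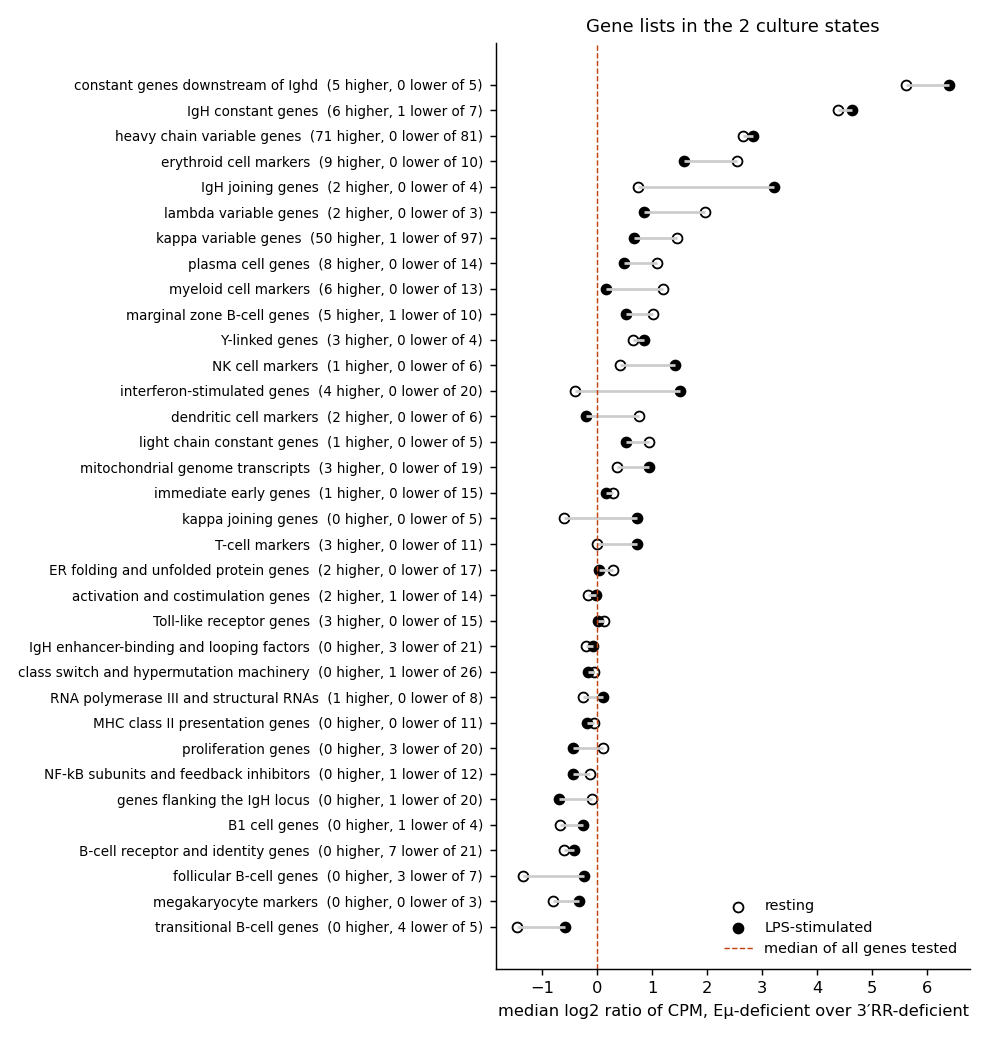
Median log2 ratio of CPM (horizontal, Eμ-deficient over 3′RR-deficient) of each gene list in the resting (open) and LPS-stimulated (filled) libraries, with the number of genes called in each direction of those tested; "higher" means higher in Eμ-deficient B-cells. The IgH constant and variable genes lie farthest to the right in the resting libraries, and the transitional and follicular genes lie left of the median of all genes (dashed) in both states.

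The transitional genes called were Cd93 (214 and 91 against 603 and 320 counts, adjusted p = 0.00979), Vpreb3 (105 and 42 against 598 and 49 counts, adjusted p = 0.0255), Sox4 (42 and 9 against 180 and 13 counts, adjusted p = 0.0483) and Myb (65 and 142 against 313 and 169 counts, adjusted p = 0.0335). None of the 4 was called with the GC trend removed. The fifth, Cd24a, which encodes a surface glycoprotein, made up most of the sum, with 316 and 882 against 280 and 852 CPM, and did not pass the test (0.11 ± 0.22, adjusted p = 0.781). Of the B1 cell genes, Spn, which encodes CD43, the antigen used to deplete other cells, was lower in Eμ-deficient B-cells, with 9.94 and 39.2 CPM against 16.7 and 91.4 CPM (-0.9955 ± 0.213, adjusted p = 0.0131), a call that ended with the GC trend removed. Of 21 B-cell receptor and identity genes, 7 were called, all lower in Eμ-deficient B-cells, beside 5.4% of all genes in that direction, and the median was -0.45. The most changed were Bach2 and Bcl6, both repressors that hold off plasma cell fate. Bach2 had 47.2 and 58.9 CPM against 191 and 104 CPM (-1.42 ± 0.27, adjusted p = 0.00662), and Bcl6 had 17.4 and 5.54 CPM against 35.8 and 12.8 CPM (-1.11 ± 0.23, adjusted p = 0.0115). The others were Cd22, Irf8, Foxo1, Cd79a and Syk, with log2 fold changes of -0.84, -0.78, -0.83, -0.86 and -0.84. With the GC trend removed only Bcl6 was called (adjusted p = 0.0411).

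Plasma cell genes were higher without Eμ. Of 14 tested, 8 were called higher in Eμ-deficient B-cells and none in 3′RR-deficient B-cells, beside 6.51% and 5.4% of all genes. Their median log2 fold change was 0.88, and 4 were called with the GC trend removed. Jchain, the peptide that links IgM and IgA multimers, had 22923 and 8572 counts without Eμ and 3509 and 1782 counts without the 3′RR, or 1700 and 779 CPM against 166 and 203 CPM, while wt B-cells had 112 and 96.7 CPM. It was consistently called (2.65 ± 0.33, adjusted p = 0.000522), and both deletions were above wt in both states. The other 7 genes were Ell2, an elongation factor for secretory Ig transcripts (1.18), Fkbp11 (1.37), Fam46c (1.19), Sdc1, which encodes the plasma cell antigen CD138 (1.22), Edem1 (0.83), Xbp1, the transcription factor of the secretory programme (0.76), and Creb3l2 (0.83), given as log2 fold changes, and with wt in the fit only Jchain of the list was called. Prdm1, the master regulator of plasma cells, had 19.9 against 5.53 CPM in resting B-cells but 97.9 against 89.3 CPM after LPS and did not pass the test (adjusted p = 0.084), and Irf4 had 359 and 354 CPM against 355 and 391 CPM (-0.06 ± 0.21). Of 17 genes of protein folding and the unfolded protein response, 2 were called higher in Eμ-deficient B-cells, beside 6.51% of all genes. They were Dnajc3 (67.1 and 115 against 34.7 and 51.1 CPM, adjusted p = 0.00597) and Dnajb9 (126 and 42.5 against 83.9 and 15.3 CPM, adjusted p = 0.0192), chaperones of the endoplasmic reticulum.

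Of 26 genes of class switch and hypermutation, 1 was called, beside 5.4% of all genes in that direction. It was the mismatch repair gene Msh6, at 20.6 and 54.5 CPM without Eμ against 44.5 and 88.5 CPM without the 3′RR (-0.90 ± 0.20, adjusted p = 0.0163), which ended with the GC trend removed, and the median of the list was -0.15. Of 21 factors that bind the IgH enhancers or form chromatin loops, 3 were called lower in Eμ-deficient B-cells, among them Tcf3, which encodes the E2A proteins (46.9 and 81.8 against 106 and 163 CPM) and the Mediator subunit Med12 (52.9 and 42.6 against 87.2 and 71.0 CPM). None of these 3 was called with the GC trend removed.

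Genes of the LPS response are given beside the 6.51% of all genes called higher in Eμ-deficient and the 5.4% called higher in 3′RR-deficient B-cells. Of 12 NF-κB subunits and feedback inhibitors, only Bcl3 was called, lower without Eμ (-1.14 ± 0.23), and of 14 activation and costimulation genes Cd80 (1.33 ± 0.27) and Cd86 (0.97 ± 0.23), both ligands for T-cells, were higher and Tnfrsf13c, the BAFF receptor, was lower (-0.98 ± 0.22). Of 15 Toll-like receptor genes, Tlr7, an RNA sensor, had 49.2 and 76.5 CPM against 28.2 and 17.1 CPM (1.46 ± 0.29, adjusted p = 0.0089), and Ly96 and Cd14, partners of the LPS receptor, had 101 and 47 against 53 and 12 counts and 53 and 23 against 44 and 0 counts. None of these 7 genes was called with the GC trend removed. Of 15 immediate early genes 1 was called, Btg2 (0.71 ± 0.20), and of 11 MHC class II presentation genes 0 were called by edgeR (2 at an unadjusted p under 0.05) and 0 by DESeq2, with the median at -0.16. Of 20 proliferation genes, 3 were called lower in Eμ-deficient B-cells, the replication helicase subunits Mcm2 (21.3 and 83.6 against 32.9 and 227 CPM), Mcm5 (29.7 and 194 against 42.5 and 379 CPM) and Mcm6 (17.9 and 140 against 35.1 and 209 CPM), and none of these with the GC trend removed. The summed level of the 20 genes was 545 against 526 CPM at rest and 2840 against 3770 CPM after LPS.

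Of 20 interferon-stimulated genes tested, 4 were called higher in Eμ-deficient and none in 3′RR-deficient B-cells, and their median log2 ratio was -0.41 at rest and 1.52 after LPS. The summed level of the 20 genes was 231 against 264 CPM at rest and 909 against 402 CPM after LPS, with 304 and 265 CPM in wt. Ifi44, an interferon-induced cytoplasmic protein, had 75 and 384 counts without Eμ, 8 and 5 counts without the 3′RR and 117 and 56 counts in wt, so that the deletions did not overlap, and it was consistently called (4.90 ± 0.37, adjusted p = 9.6e-06). Rsad2, which encodes the antiviral protein viperin, had 685 and 106 against 308 and 33 counts (1.62 ± 0.24, adjusted p = 0.00173), and Isg15, a ubiquitin-like modifier, 105 and 855 against 86 and 263 counts (1.18 ± 0.22, adjusted p = 0.00738). Ifit1, which binds viral RNA, had 18 and 368 against 23 and 104 counts and just passed (1.10 ± 0.33, adjusted p = 0.0497). With the GC trend removed Ifit1 was lost, and with wt in the fit only Ifi44 was called.

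The promoters of the called interferon-stimulated genes were read from the RefSeq promoter table (GRCm38.p6, 250 bases before to 50 after each start) and searched for GAAANNGAAA on both strands, the only motif searched, whose letters belong to the element bound by interferon-activated factors. It was found in 1131 of 32851 promoters (3.44%), in 8 of the 13 listed genes with a promoter in the table and in 3 of the 4 called genes, but not in Ifi44. The windows of 120 bases are shown because 3 of the 4 called genes hold these letters, at chr19:34640730-34640849 (plus strand) for Ifit1, chr4:156200832-156200951 (minus strand) for Isg15 and chr12:26456508-26456627 (minus strand) for Rsad2. Capitals mark matches on either strand, read from the left without overlap.
Ifit1: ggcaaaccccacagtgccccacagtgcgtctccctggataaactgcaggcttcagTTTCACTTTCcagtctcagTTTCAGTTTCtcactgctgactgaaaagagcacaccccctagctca
Isg15: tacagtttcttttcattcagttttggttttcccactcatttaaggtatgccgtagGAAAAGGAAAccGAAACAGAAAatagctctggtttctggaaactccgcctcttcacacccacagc
Rsad2: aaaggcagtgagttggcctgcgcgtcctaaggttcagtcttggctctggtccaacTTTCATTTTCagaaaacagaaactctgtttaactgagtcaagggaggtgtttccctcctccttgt
A match describes letters and not a site in use.

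Outside the IgH locus the largest ratios in favour of Eμ-deficient B-cells were those of processed pseudogenes, copies of spliced messages inserted elsewhere in the genome. Of the 12 called genes with the largest smaller ratio of the 2 states, 7 were processed pseudogenes and 4 came from the IgH locus. Rps3a3 had 2919 and 3494 counts without Eμ, 18 and 22 counts without the 3′RR and 14 and 28 counts in wt, with log2 ratios of 7.99 (7.33 to 8.75) and 6.98 (6.38 to 7.66) (adjusted p = 3e-07). Rpl34-ps1 had 4911 and 5796 counts against 90 and 14, with 4523 and 15538 in wt, and log2 ratios of 6.42 (6.12 to 6.74) and 8.37 (7.62 to 9.24) (adjusted p = 1.17e-06). In Rps3a3 the wt libraries were therefore on the 3′RR-deficient side and in Rpl34-ps1 on the Eμ-deficient side. Rps15a-ps6 (1795 and 1775 against 48 and 12 counts), Rps13-ps1 (1870 and 2347 against 59 and 26), Gm10154 (262 and 351 against 14 and 5), Rpl30-ps9 (214 and 294 against 10 and 8) and Rps15a-ps7 (415 and 580 against 27 and 17) followed, as did the pseudogene Gm3608 (383 and 460 against 26 and 14). All were consistently called.

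Several of these pseudogenes are close to the gene they copy, and reads with several matches were counted at their primary alignment only. The alignment of Rps15a-ps7 to Rps15a gave 74 mismatches in 389 bases. This count may overstate its distance, given the stretches it shares with other transcripts (below). Rps3a3 differed from the coding part of Rps3a1 at 9 of 792 bases (98.9% identical), and Rpl34-ps1 from that of Rpl34 at 2 of 351 bases (99.4%). Windows of 90 bases around mismatches are shown because so few letters separate the copies, at chr13:108670773-108670862 (plus strand, GRCm38) for Rps3a3 and chr6:71124652-71124741 (plus strand) for Rpl34-ps1, beside the spliced transcripts of Rps3a1 and Rpl34 on chromosome 3. Capitals mark the bases that differ.
Rps3a3: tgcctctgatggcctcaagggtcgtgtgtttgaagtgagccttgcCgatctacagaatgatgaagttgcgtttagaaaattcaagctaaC
Rps3a1: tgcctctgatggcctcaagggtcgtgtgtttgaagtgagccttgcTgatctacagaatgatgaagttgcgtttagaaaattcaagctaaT
Rpl34-ps1: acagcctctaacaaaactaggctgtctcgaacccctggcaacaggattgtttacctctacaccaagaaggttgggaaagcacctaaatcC
Rpl34: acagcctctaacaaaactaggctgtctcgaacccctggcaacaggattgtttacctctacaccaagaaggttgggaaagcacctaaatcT

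Of stretches of 100 bases, 31.6% of those in Rps3a3 and 98.4% of those in Rpl34-ps1 occurred in a transcript of another gene. In Rps15a-ps7 the share was 43.3%, with Rps15a among the genes it shared most with, and in Rps15a-ps6 it was 16.0%. Single members of these groups are therefore uncertain. Rps3a1, a ribosomal protein gene, was lower in Eμ-deficient B-cells, with 3868 and 4205 against 12619 and 8075 counts (-1.16 ± 0.22, adjusted p = 0.00792), where its pseudogene was higher. Summed, Rps3a3 and Rps3a1 had 503 against 598 CPM at rest and 699 against 923 CPM after LPS, log2 ratios of -0.25 and -0.40. The sums of Rps13-ps1 and Rps13 had log2 ratios of -0.24 and -0.09, and those of Rps15a-ps6 and Rps15a -0.32 and -0.28. For Rpl34-ps1 and Rpl34 the sums were 662 against 735 CPM and 974 against 492 CPM. For Rps15a-ps7 and Rps15a the log2 ratios of the sums were -0.43 and -0.37, and for Rpl30-ps9 and Rpl30 -0.04 and 0.41. A sum gives more weight to its more abundant member.

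In favour of 3′RR-deficient B-cells, the largest ratios were those of a pair of neighbouring genes of the tripartite motif family on chromosome 7, a family that includes restriction factors against retroviruses. Trim12a had 2 and 3 counts without Eμ, 1727 and 258 counts without the 3′RR and 231 and 175 counts in wt, with log2 ratios of -9.11 (-12.15 to -7.25) and -6.75 (-9.04 to -5.19) (adjusted p = 4.81e-07). Trim5 had 1 and 8 counts against 746 and 140, with 106 and 106 in wt, and log2 ratios of -8.89 (-14.20 to -6.41) and -4.46 (-5.70 to -3.44) (adjusted p = 2e-06). In both genes wt B-cells lay between the deletions and the libraries of the deletions did not overlap. The 250 bases before the start sites of both genes are shown because they are largely the same, at chr7:104315496-104315745 for Trim12a and chr7:104288107-104288356 for Trim5, both on the minus strand (RefSeq promoter table, GRCm38.p6). Capitals mark an identical run of 241 bases, which begins at base 60 of the Trim12a window and base 1 of the Trim5 window and in Trim12a goes on past the start site. It begins with the first base of the Trim5 entry and reaches the last base of the Trim12a entry, so the shared sequence may be longer.
Trim12a: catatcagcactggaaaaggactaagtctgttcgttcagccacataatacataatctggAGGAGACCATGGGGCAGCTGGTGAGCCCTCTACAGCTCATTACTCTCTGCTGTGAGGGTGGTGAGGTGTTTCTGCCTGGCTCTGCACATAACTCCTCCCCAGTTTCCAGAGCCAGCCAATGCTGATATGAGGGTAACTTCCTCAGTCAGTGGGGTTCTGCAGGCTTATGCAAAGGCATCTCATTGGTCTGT
Trim5: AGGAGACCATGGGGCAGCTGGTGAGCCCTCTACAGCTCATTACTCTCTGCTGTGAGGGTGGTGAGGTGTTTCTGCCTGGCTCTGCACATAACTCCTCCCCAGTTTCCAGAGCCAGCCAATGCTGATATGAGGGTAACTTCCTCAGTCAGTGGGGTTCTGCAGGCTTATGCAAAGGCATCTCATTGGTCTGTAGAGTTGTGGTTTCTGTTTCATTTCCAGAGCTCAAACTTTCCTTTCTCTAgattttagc

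The neighbours of Trim12a and Trim5 were examined after their values were seen. In the window chr7:104000001-106000000, 26 genes were tested, of which 7 were called higher in 3′RR-deficient and 3 in Eμ-deficient B-cells, beside 5.4% and 6.51% of all genes. The same numbers were called with the GC trend removed. Trim30d had 10 and 50 counts against 608 and 259 (-3.71 ± 0.45, adjusted p = 0.000402), Trim34a 224 and 210 against 1287 and 470 (-1.68 ± 0.21, adjusted p = 0.000508) and Trim30b 269 and 77 against 755 and 141 (-1.002 ± 0.229, adjusted p = 0.0175). Trim30c, between Trim30b and Trim30d, went the other way, with 109 and 126 against 40 and 7 counts (2.71 ± 0.40, adjusted p = 0.00162). Gm15133, an antisense transcript that overlaps the start of Trim12a on the other strand, had 0 and 0 against 126 and 17 counts and was at least 26.8-fold and at least 7.10-fold lower in Eμ-deficient B-cells. The window thus held genes of both directions side by side. Whether the mouse lines differ in sequence at these genes was not tested. Of stretches of 100 bases, 1.1% in Trim12a and 12.7% in Trim5 occurred in another gene's transcript.

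Others of the 12 genes with the largest ratios in favour of 3′RR-deficient B-cells were Eps8l1, of an actin regulator (6 and 2 against 350 and 46 counts), Gm1966, an unprocessed pseudogene on chromosome 7 (65 and 73 against 4294 and 967 counts, with 600 and 422 in wt) and Akap12, an anchor of protein kinase A (58 and 24 against 739 and 238 counts, with 343 and 317 in wt). Sema5a, of an axon guidance protein (2 and 1 against 140 and 18 counts), and Uchl1, a deubiquitinase (1 and 11 against 36 and 70 counts), had fewer. All 5 were consistently called. Hmgb1-ps8 had no count in either Eμ-deficient library, 233 and 37 counts without the 3′RR and 178 and 76 in wt, and was at least 49.5-fold and at least 15.5-fold lower without Eμ (adjusted p = 5.91e-05), though DESeq2 did not call it. Map2 (2 and 3 against 114 and 23 counts), 2610507I01Rik (3 and 2 against 46 and 20) and Guca1b (0 and 0 against 33 and 21) completed the list and were not called in at least 1 of the alternatives named above.

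**Figure D4:**
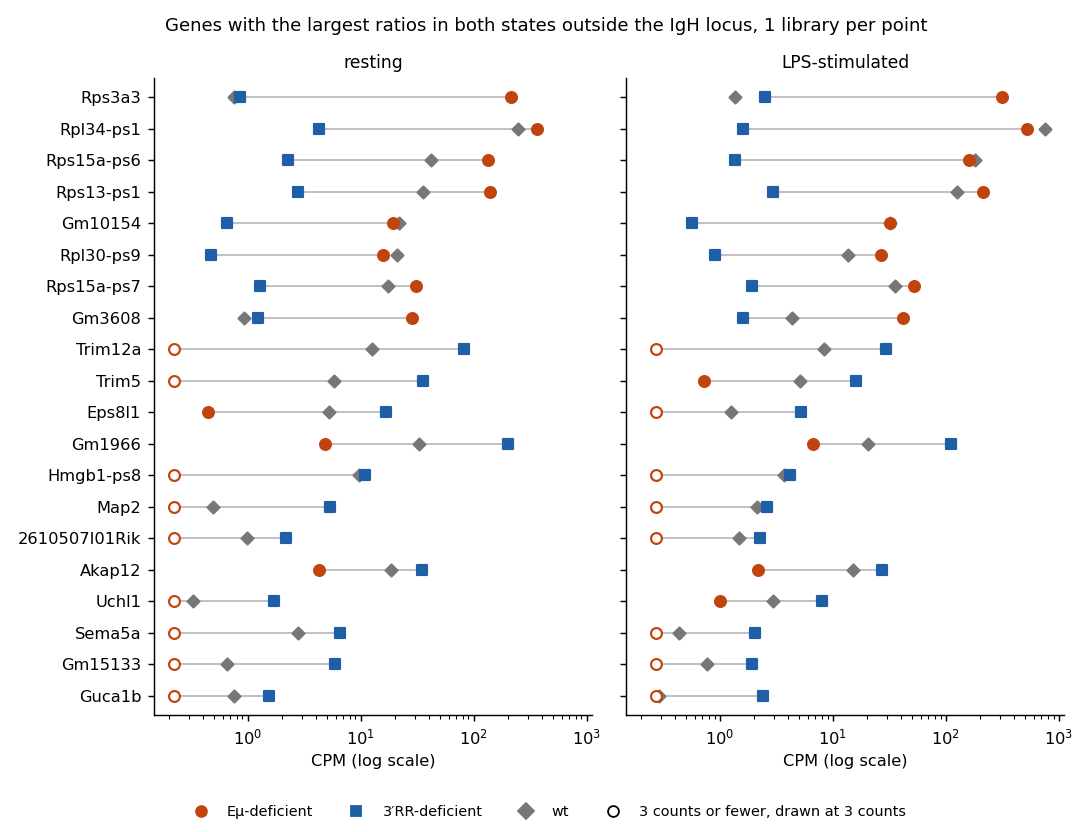
CPM on a log scale (horizontal) of the genes outside the IgH locus with the largest ratios in both states, 1 point per library, with open symbols for 3 counts or fewer. In the upper 8 genes the Eμ-deficient libraries lie to the right of the 3′RR-deficient libraries and in the lower 12 to the left, and the wt libraries fall on either side or between them.

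Single genes with a large ratio but no place on the lists were picked after their values were seen. Apobec3, a deaminase that restricts retroviruses, had 183 and 310 counts without Eμ, 4119 and 1200 without the 3′RR and 1214 and 1697 in wt (-3.05 ± 0.32, adjusted p = 0.000139). Wls, which carries Wnt proteins to the surface, had 1229 and 756 against 116 and 21 counts, with 770 and 839 in wt (4.37 ± 0.26, adjusted p = 1.45e-06). Both were consistently called. Ifi202b, of an interferon-inducible DNA-binding protein, had 58 and 52 counts against 0 and 0, with 8 and 2 in wt, and was at least 30.3-fold and at least 13.8-fold higher without Eμ. As to wt, 340 of the 904 genes called higher in Eμ-deficient B-cells (37.6%) had wt nearer to the 3′RR-deficient library in both states and 133 (14.7%) nearer to the Eμ-deficient library. Of the 750 genes on the other side, 70 (9.33%) had wt nearer to the Eμ-deficient library in both states and 90 (12%) nearer to the 3′RR-deficient library.

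Called genes of the highest level in favour of 3′RR-deficient B-cells were Rpl8 and Rpl3, of ribosomal proteins, Hspa8, a chaperone, Gapdh, of glycolysis, and the small nucleolar RNA Snora73b. Rpl8 had 466 and 956 CPM without Eμ and 790 and 2200 CPM without the 3′RR, Rpl3 379 and 549 against 550 and 1200 CPM, Hspa8 385 and 1020 against 619 and 2090 CPM, Gapdh 109 and 711 against 160 and 1570 CPM and Snora73b 472 and 301 against 827 and 922 CPM. None of the 5 was called with the GC trend removed or with wt in the fit. Of the 10 nearly equal groups of genes by GC content, in the highest (57.4% to 75.5%), 17.3% were called higher in 3′RR-deficient and 1.46% in Eμ-deficient B-cells. In the lowest (25.0% to 40.7%), 0.511% and 10.8% were called. With the trend removed these shares were 0.878% and 1.9% in the highest and 1.39% and 1.39% in the lowest group. A window on chromosome 10, chr10:80000001-82000000, had 23 of 77 tested genes called higher in 3′RR-deficient B-cells, beside 5.4% of all genes, and 1 with the GC trend removed.

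**Figure D5:**
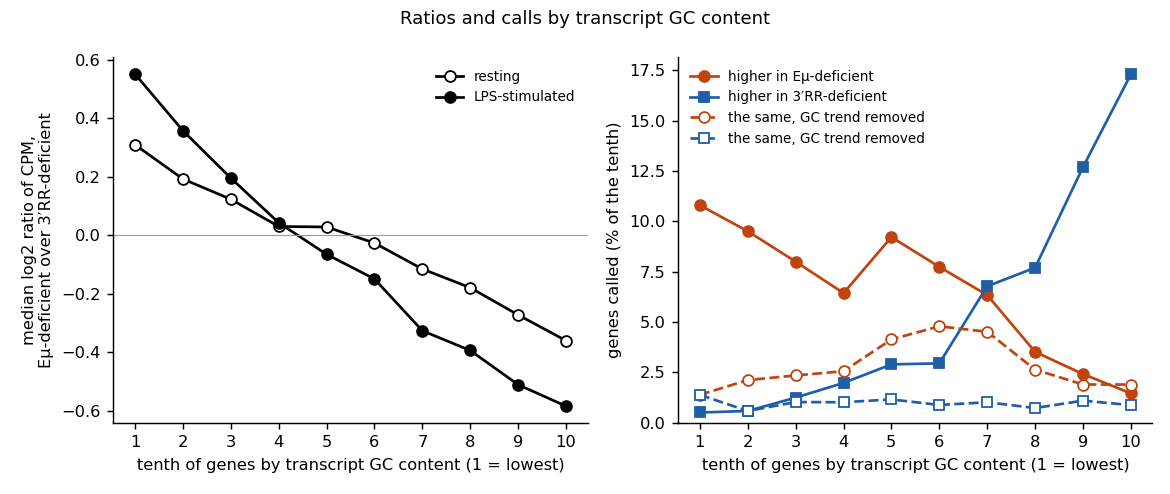
Left, median log2 ratio of CPM (Eμ-deficient over 3′RR-deficient) and right, percent of genes called, for 10 nearly equal groups of genes by transcript GC content. The median falls from 0.31 to -0.36 in the resting and from 0.55 to -0.58 in the LPS libraries, and the slopes of the called shares are smaller with the GC trend removed (dashed).

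Markers of other cells moved with the comparison. Of 10 erythroid markers, 9 were called higher in Eμ-deficient B-cells, beside 6.51% of all genes, with a median log2 fold change of 2.35, and 8 with the GC trend removed. Their summed level was 20000 and 652 CPM in the Eμ-deficient, 3800 and 136 CPM in the 3′RR-deficient and 3340 and 53.5 CPM in the wt libraries, and 1 of 10 was at 0 counts in each LPS library of the deletions. The globin genes Hbb-bs (7090 and 274 against 1200 and 39.2 CPM), Hba-a1 (6820 and 246 against 1500 and 69.1 CPM) and Hba-a2 (3030 and 94.9 against 592 and 18.5 CPM) were among the 5 genes of the highest level called in this direction, with Ighm and Gm10925, a pseudogene that matches the mitochondrial mt-Atp6 over its whole length. The calls of Hbb-bs and Hba-a2 ended when the LPS-stimulated Eμ-deficient library was left out. The resting Eμ-deficient library held most of these transcripts, and their part in the other results was not tested.

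The marker lists that follow are set beside the 6.51% of all genes called higher in Eμ-deficient B-cells. Of 13 myeloid markers tested, 6 were called higher in Eμ-deficient B-cells (Ccr2, C1qa, C1qb, C1qc, Lyz2 and Cd14), with sums of 570 and 43.9 CPM against 230 and 35.3 CPM and 207 and 26 CPM in wt. Of the 15 listed, 1 was at 0 counts in each resting library, and 2 and 4 in the LPS libraries of Eμ-deficient and 3′RR-deficient B-cells. Ccr2, a receptor of monocytes, had 510 and 18 against 122 and 1 counts (2.80, adjusted p = 0.000311), and S100a8, of neutrophils, had 32 and 15 against 155 and 1 counts and did not pass the test. Of 6 dendritic cell markers, Siglech, of plasmacytoid cells (200 and 17 against 32 and 1 counts), and Zbtb46 were called, with sums of 147 and 35.4 CPM against 77.3 and 32.7 CPM, and 1 marker was at 0 in the 3′RR-deficient LPS library. Of 11 T-cell markers tested, Cd4, Il7r and Cd28 were called, with sums of 69.6 and 28.8 CPM against 50.4 and 20.2 CPM. Cd3e had 16 and 4 against 25 and 1 counts, and 1 of the 13 listed was at 0 in the 3′RR-deficient LPS library. Of 6 natural killer cell markers tested, Gzmb was called (18 and 159 against 17 and 1 counts), with sums of 16.1 and 19.7 CPM against 13.2 and 1.14 CPM. Of the 8 listed, 1 was at 0 in the LPS-stimulated Eμ-deficient and 3 in the 3′RR-deficient LPS library, and edgeR called 0 of 3 megakaryocyte and 0 of 2 stromal markers (1 and 1 at an unadjusted p under 0.05, 0 and 0 by DESeq2). With the GC trend removed, 3 myeloid, 1 dendritic, 1 T-cell and 1 natural killer cell markers were called. With wt in the fit these numbers were 1, 1, 0 and 0, and by DESeq2 3, 1, 0 and 1. The part of these cells in the results was not tested, and transcripts of these cells and of B-cells cannot be told apart in the plasma cell, interferon and Toll-like receptor lists.

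Transcripts of the mitochondrial genome, a sign of RNA and cell state, summed to 140000 and 92900 CPM in the Eμ-deficient and 87200 and 33300 CPM in the 3′RR-deficient libraries. Of 19 tested, 3 were called higher without Eμ (mt-Nd3, mt-Nd6 and mt-Tp), beside 6.51% of all genes, and 1 of them with the GC trend removed. Of 8 RNA polymerase III and structural RNAs, from a list that also holds the ribosomal protein gene Rpl41, only Terc was called, beside 6.51% of all genes. Terc, the telomerase RNA, was higher without Eμ, with 466 and 235 against 535 and 60 counts. Of 4 Y-linked genes, 3 were called higher in Eμ-deficient B-cells, beside 6.51% of all genes, and none with the GC trend removed. Their sums were 341 and 192 CPM against 216 and 109 CPM, with 204 and 245 CPM in wt. Xist, the X inactivation transcript, had 4 and 0 against 48 and 3 counts, with 0 and 3 in wt. The part of these differences in the results was not tested.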

How the data were processed

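Counts per gene were used as deposited by the authors, who depleted ribosomal RNA, made stranded libraries and aligned with STAR 2.4.0a to mm10. They counted with featureCounts (Subread 1.4.6-p1), strand-specifically and with multi-mapping reads counted at their primary alignment only. Mice of a 129 background were thus mapped to a C57BL/6J reference. Sequence differences between the mouse lines, or from the reference, were not examined for any gene named here. The 92 spike-in RNAs were left out of library sizes. Genes were tested where 2 or more of the 4 libraries had at least 10 counts, using edgeR 4.0.16 (R 4.3.3; quasi-likelihood test, TMM scaling, culture state and genotype as terms, Benjamini-Hochberg), with 1 residual degree of freedom a gene, after the scripts had been tested on simulated data. DESeq2 1.42.0, other scalings and filters, GC and length offsets, a fit of all 6 libraries and fits without 1 library were alternatives. Intervals are exact (Clopper-Pearson, scipy 1.17.1) and cover counting error only. GC content came from GENCODE M21, in which 44131 of 46963 names matched directly and 764 by an older name.

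Genes named were the members of gene lists, per direction the 12 called genes with the largest smaller ratio of both states, and the 5 called genes with the highest mean CPM, immunoglobulin variable genes being summed. The comparison, its members and the lists were chosen with earlier results of these data known.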

Additional observations from a re-analysis of the deposited data

Results flagged for a closer look

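The median log2 ratio (Eμ-deficient over 3′RR-deficient) of 5 gene lists lay on opposite sides of 0 in the resting and the LPS libraries, and the difference between states was not tested. It was higher after LPS for kappa joining genes by 1.34 (-0.60 to 0.74), of which edgeR called 0 of 5 (0 at an unadjusted p under 0.05, 0 by DESeq2), for interferon-stimulated genes by 1.93 (-0.41 to 1.52) and for RNA polymerase III and structural RNAs by 0.36 (-0.26 to 0.10). For proliferation genes the change was -0.53 (0.10 to -0.43) and for dendritic cell markers -0.96 (0.76 to -0.20).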

How the results depend on the processing

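The main counts of 904 genes higher in Eμ-deficient and 750 higher in 3′RR-deficient B-cells became 393 and 302 with the DESeq2 Wald test, 392 and 135 with the GC trend removed, 163 and 38 with all 6 libraries, 190 and 51 with no filter on low counts, and 0 and 0 by edgeR without the culture state as a block (400 genes at an unadjusted p under 0.05). Leaving out 1 library in the 6-library fit gave 189 (without the resting 3′RR-deficient library) to 238 (without the Eμ-deficient LPS library) genes and 28 (without the resting Eμ-deficient library) to 63 (without the resting 3′RR-deficient library) genes, where a lone library is taken to vary like the others. The counts past 2-fold in both states, 342 and 124, were 168 and 39 past 3-fold and 162 and 74 with at least 100 counts. The medians of 5 lists changed sign: kappa joining genes from 0.31 to -0.23 (length trend removed), NF-κB genes from -0.27 to 0.0096 (GC trend removed), Toll-like receptor genes from -0.03 to 0.21 (GC), 0.0212 (length trend removed) and 0.0059 (no block), activation genes from -0.01 to 0.0038 (at least 30 counts), 0.0256 (length), 0.0115 (no block), 0.0487 (no filter) and 0.014 (total count scaling), and RNA polymerase III and structural RNAs from -0.15 to 0.22 (GC). The cause was not tested. No paired analysis was possible because each group holds 1 library and no replicate number pairs them; culture state is the only block. Depth limits genes with few counts, and with 1 library per genotype and state the spread between mice was not measured.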
